A study of Mus musculus with 8 samples.

Results

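The genes of insulin signalling, FoxO transcription factors and gluconeogenesis were followed in Hepa1-6 cells, a mouse hepatoma line, exposed to trimethylamine N-oxide (TMAO), to TNF-α or to both. The 10 genes were chosen by name: the insulin receptor Insr, its docking proteins Irs1 and Irs2, the kinases Akt1 and Akt2, the transcription factors Foxo1 and Foxo3, the coactivator Ppargc1a and the phosphoenolpyruvate carboxykinases Pck1 and Pck2. All 10 are among the 54446 genes of the count table and in the table of TPM (transcript abundance scaled for length and depth). Of the 10, 9 passed the filter on low counts that left 15613 genes for testing, and Pck1 did not.

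Insulin binding to its receptor leads to phosphorylation of the docking proteins, which recruit phosphoinositide 3-kinase and so activate AKT. AKT phosphorylates FoxO proteins, which then leave the nucleus, and in fasted liver nuclear FoxO1 together with PGC-1α (the product of Ppargc1a) drives the genes of glucose production, among them Pck1 and G6pc. TMAO is an oxidised amine formed by the liver from trimethylamine that gut bacteria release from dietary choline, and a FoxO1 axis has been proposed for its action in liver. TNF-α is an inflammatory cytokine known for impairing insulin signalling in liver, fat and muscle. These are largely events of phosphorylation and localisation, whereas the measurements here are of mRNA alone.

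There were 4 groups of 2 libraries of polyadenylated RNA: cells given TMAO at 50 µM, cells given TNF-α at 50 ng/ml, cells given both at these doses, and untreated control cells, with 24 h of exposure for the treated groups. Cells were grown in DMEM with fetal bovine serum, and the labels mention neither serum deprivation nor added insulin. In 1 label field the combined group is listed with TMAO at both doses, but TNF-α is the second agent in its sample names and in the protocol. Each group has a library 14 and a library 16. Nothing in the labels shows whether the 2 were grown as separate cultures, so the p-values rest on a spread between libraries that may be technical. In bulk RNA, fewer cells of a type and less RNA per cell cannot be told apart.

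Libraries held 24736746 to 30488605 counts, and 3 counts corresponded to 0.0993 to 0.124 counts in 1000000 (CPM), which covers counting error only. The TNF-α library 16 stood apart from its partner. Over 12368 genes with at least 1 CPM, the log2 difference of library 16 minus library 14 had an SD of 0.18 in the TMAO group, 0.69 in the TNF-α group, 0.21 in the combined group and 0.25 in control. In the TNF-α group its median was 0.58 for genes with up to 1000 bases of exon and -0.57 for genes with over 8000 bases, against -0.14 and 0.15 in control. Control library 14 thus differed from its partner in the same direction as TNF-α library 16 did, but by less. A further fit left both of these libraries out. Of the 9 tested genes, 8 have over 6000 bases of exon and Akt1 has 4098. In the TNF-α group 6 of the 9 were lower in library 16 than in library 14, whereas Akt1, Akt2 and Pck2 were higher there by 0.22, 0.19 and 0.54 on the log2 scale. For the calls on these 9 genes that rest on the TNF-α libraries, fold changes without library 16 are also given. Such a fit leaves 1 library in the TNF-α group, which is assumed to vary like the other groups, and it called 4102 of 16377 genes for averaged TNF-α and 2113 for TNF-α against control. Hepatocyte markers Alb, Afp, Apob, Hnf4a and Foxa2 were expressed, whereas Ttr, Apoa1 and Serpina1a had at most 10 counts in any library.

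**Figure D1:**
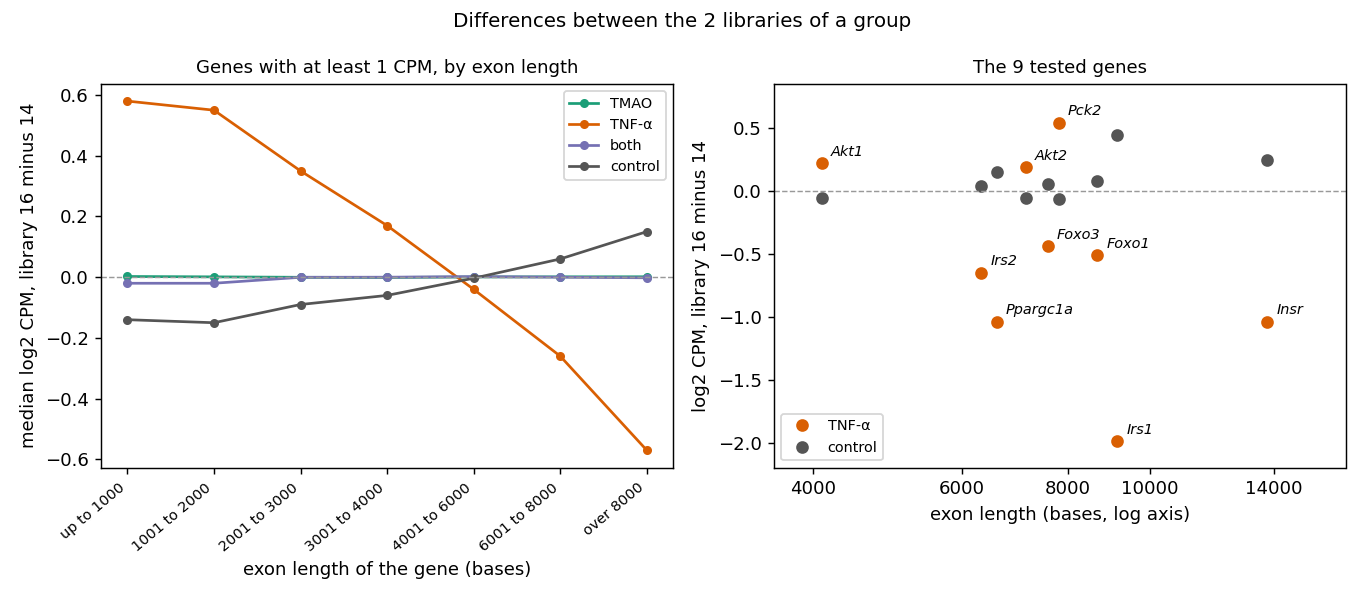
Differences between the 2 libraries of each group on the log2 CPM scale: the left panel gives the median over genes in bins of exon length (bases) for the 4 groups, and the right panel gives the 9 tested genes against their exon length (log axis) in the TNF-α and control groups. In the TNF-α group the medians run from 0.58 for the shortest genes to -0.57 for the longest, the medians of the TMAO and combined groups stay near 0, and Irs1 has the largest difference of the 9 genes, at -1.99.

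With TNF-α, the docking protein transcript Irs2 fell and Foxo3 rose. TMAO alone moved none of the 9 tested genes past the test, but by edgeR it moved none of all 15613 genes past it either. Averaged over TMAO, that is over the 4 libraries with TNF-α against the 4 without, Irs2 was 2.2-fold lower and Foxo3 was 1.49-fold higher. These were 2 of the 9 tested genes, against 9.20% of all 15613 genes called in that comparison, 5.35% higher and 3.86% lower (edgeR's quasi-likelihood test, Benjamini-Hochberg adjusted p under 0.05). In that comparison Irs2 passed in 20 of 21 alternative fits and Foxo3 in 12, and by edgeR Foxo3 passed in no comparison of 2 groups. Irs1 was lower in every library with TNF-α than in any without, but did not pass by edgeR, whereas DESeq2 called it. Foxo1, Insr, Akt1, Akt2, Pck2 and Ppargc1a did not pass, and Pck1, the gluconeogenic gene most used as a FoxO1 readout in liver, was not detectably expressed.

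**Figure D2:**
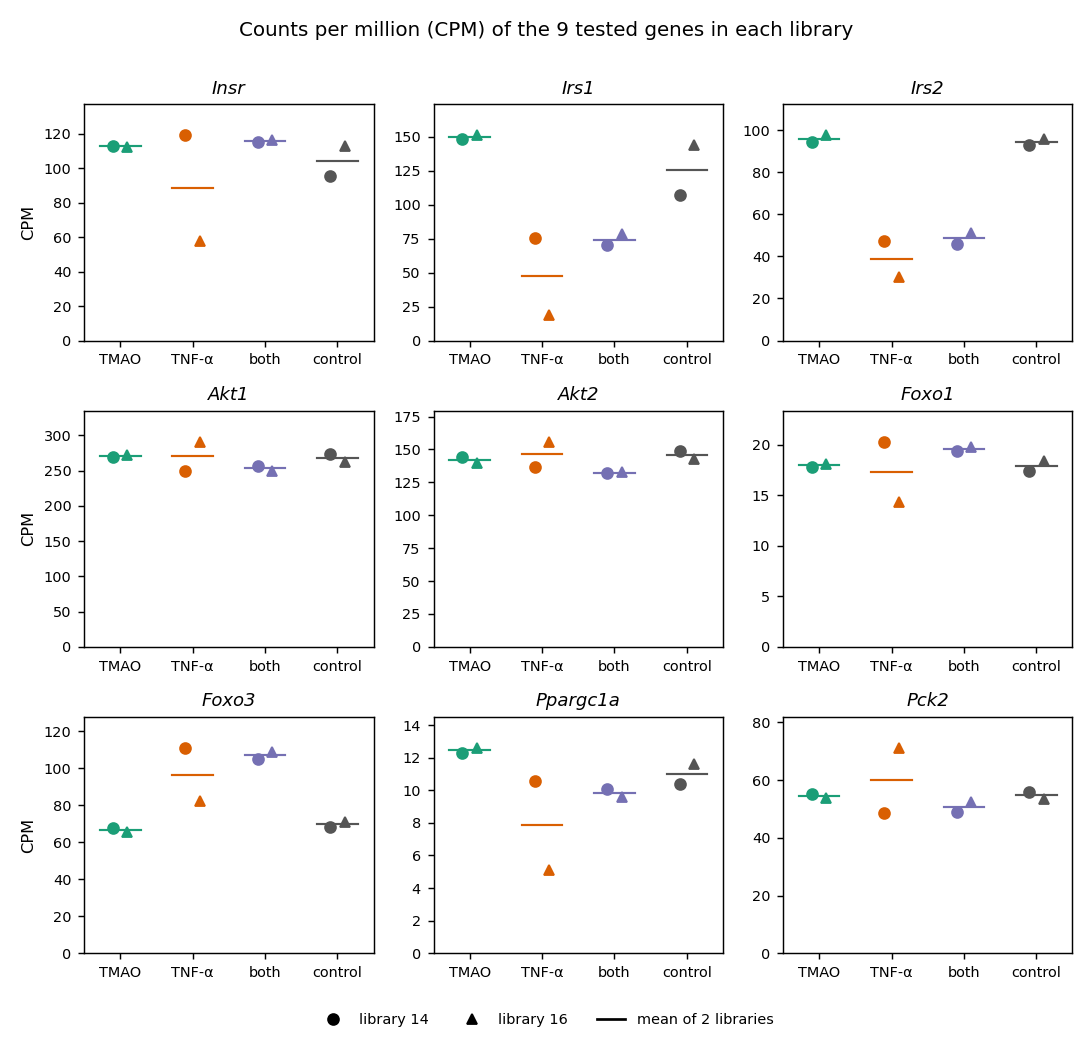
CPM of the 9 tested genes in each library (circles, library 14; triangles, library 16; bars, mean of the 2 libraries), by group. Irs1 and Irs2 are lower and Foxo3 is higher in all 4 libraries with TNF-α than in the 4 without, and in the TNF-α group library 16 is below library 14 for Insr, Irs1, Irs2, Foxo1, Foxo3 and Ppargc1a and above it for Akt1, Akt2 and Pck2.

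Per unit of transcript length, the genes differed widely in level. On the TPM scale Akt1 had the highest level, with a median of 192 TPM over the 8 libraries and a range of 175 to 201 TPM that did not overlap that of any other of the 10 genes. Then came Akt2 with a median of 46.5 TPM, Irs1 with 34.2, Pck2 with 32.8, Insr with 31.4, Foxo3 with 24.9 and Irs2 with 24.1 TPM, and the ranges of neighbours in that order overlapped. Foxo1 had a median of 4.86 TPM (2.83 to 5.51) and Ppargc1a of 3.84 TPM (1.41 to 4.76), again with overlapping ranges. Pck1 had a median of 0 TPM.

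Within pairs of related genes, the TPM shares were as follows. Akt1 made up 79.5 to 84.5% of the summed Akt1 and Akt2 TPM in 7 libraries and 71.4% in library 14 of the combined group, where Akt2 was listed at 76.6 TPM although its counts did not stand apart. Irs1 made up 57.4 to 63.0% of the summed Irs1 and Irs2 TPM. In TNF-α library 16 it made up 58.4% of their TPM but 38.6% of their counts, so the order of the pair there depends on the table. Foxo1 made up 11.3 to 18.0% of the summed Foxo1 and Foxo3 TPM, so that Foxo3 was the more abundant FoxO transcript in every library. Pck2 made up 99.8 to 100% of the summed Pck1 and Pck2 TPM.

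Insr encodes the receptor itself. It had 113 and 112 CPM with TMAO, 119 and 57.6 CPM with TNF-α, 115 and 116 CPM with both, and 95.6 and 113 CPM in control. All libraries but TNF-α 16 lay between 95.6 and 119 CPM, and the libraries with TNF-α overlapped those without. Averaged over TMAO, the TNF-α value of Insr was -0.10 ± 0.21 on the log2 scale (SE, 95% interval -0.60 to 0.40, adjusted p = 0.864 by edgeR). TMAO against control gave 0.10 ± 0.30 (adjusted p = 1).

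The docking proteins Irs1 and Irs2 carry the signal from the receptor to phosphoinositide 3-kinase. In mouse liver Irs2 is known as the form whose gene is switched on in fasting and repressed by insulin, with FoxO1 acting at its promoter. The 250 bases before the gene's start are shown for Irs2, which fell with TNF-α, and for its relative Irs1, and beside them those of Igfbp1, the hepatocyte gene most used as a FoxO1 target, which is described further on. They are from RefSeq (GRCm38.p6) and read 5′ to 3′ on the strand of the gene. Capitals mark CACGTG, the letters of an E-box, and TGTTTTG, the letters of an insulin response element, on either strand. The Irs1 window is chr1:82291440-82291689 (minus strand), that of Irs2 is chr8:11008930-11009179 (minus strand) and that of Igfbp1 is chr11:7197537-7197786 (plus strand).
Irs1: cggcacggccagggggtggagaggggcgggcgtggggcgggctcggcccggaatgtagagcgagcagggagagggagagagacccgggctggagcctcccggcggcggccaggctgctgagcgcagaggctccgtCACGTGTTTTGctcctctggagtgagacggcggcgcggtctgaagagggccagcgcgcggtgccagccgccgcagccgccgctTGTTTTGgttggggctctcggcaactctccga
Irs2: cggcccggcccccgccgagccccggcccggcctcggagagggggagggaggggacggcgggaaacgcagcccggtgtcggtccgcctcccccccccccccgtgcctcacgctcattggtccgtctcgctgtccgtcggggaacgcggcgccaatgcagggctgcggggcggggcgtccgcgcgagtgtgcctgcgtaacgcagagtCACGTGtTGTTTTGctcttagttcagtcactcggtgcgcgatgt
Igfbp1: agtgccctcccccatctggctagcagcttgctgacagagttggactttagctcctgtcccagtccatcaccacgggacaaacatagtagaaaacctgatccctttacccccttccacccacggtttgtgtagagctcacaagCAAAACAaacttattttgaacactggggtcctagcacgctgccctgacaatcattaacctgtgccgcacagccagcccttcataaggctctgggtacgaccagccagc

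The Irs2 window held CACGTG at 44 to 39 bases before the start and TGTTTTG at 37 to 31 bases. In the Irs1 window CACGTG at 115 to 110 bases overlapped TGTTTTG at 111 to 105 bases, and a further TGTTTTG lay at 32 to 26 bases. Igfbp1 held TGTTTTG once, on the opposite strand at 108 to 102 bases. Of 32851 RefSeq windows of the same length, 6.02% held CACGTG, 5.56% held TGTTTTG, and 15 (0.0457%) held both with starts at most 20 bases apart. Windows were given for 9 of the 10 genes, all but Insr, and CACGTG occurred in 2 of them and TGTTTTG in 3 (Irs1, Irs2 and Pck2). GTAAACA, the letters of a FoxO binding site, occurred in the Akt1 window (3.17% of all windows), and TTACGTCA, the letters of a cyclic AMP response element, occurred in the Pck1 window at 93 to 86 bases (0.447% of all windows). The motifs were chosen after the sequences had been seen, and a match is a description of letters, not of binding.

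Irs2 had 94.4 and 97.6 CPM with TMAO, 47.2 and 30.1 CPM with TNF-α, 46.0 and 51.3 CPM with both, and 93.1 and 95.9 CPM in control. The 4 libraries with TNF-α, at 30.1 to 51.3 CPM, lay below the 4 without, at 93.1 to 97.6 CPM. Averaged over TMAO, TNF-α lowered Irs2 by a log2 fold change of -1.13 ± 0.14 (SE, 95% interval -1.47 to -0.80, adjusted p = 0.00349 by edgeR). It also passed for TNF-α against control, at -1.29 ± 0.20 (adjusted p = 0.0175), where 1 of the 9 tested genes was called against 4.05% of all genes. For both agents against TMAO it passed at -0.98 ± 0.20 (adjusted p = 0.0478), again as 1 of the 9 genes, against 3.64% of all genes. For both agents against control the value was -0.96 ± 0.20 and missed the threshold (adjusted p = 0.0535 by edgeR). There 0 of the 9 genes were called by edgeR, against 3.49% of all genes. An unadjusted p under 0.05 by edgeR was found for 2 of the 9, against 13.5% of all genes. DESeq2 called 2 of the 9, and its share over all genes is not given here. Without TNF-α library 16, which leaves 1 library in that group, Irs2 was at -0.99 averaged over TMAO and at -1.0 for TNF-α against control. The averaged call held without each of the 8 libraries in turn, with values of -1.31 to -0.99 and adjusted p of 1.11e-10 to 0.0346. The calls for the single contrasts ended without any 1 of the 6 libraries outside the TNF-α group, at adjusted p of 0.0626 to 0.158 for TNF-α against control and 0.132 to 0.386 for both agents against TMAO, and the second also ended with the replicate number as a block (adjusted p = 0.102).

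Irs1 had 148 and 151 CPM with TMAO, 75.3 and 18.9 CPM with TNF-α, 70.1 and 78.3 CPM with both, and 107 and 144 CPM in control. The libraries with TNF-α spanned 18.9 to 78.3 CPM and those without spanned 107 to 151 CPM, so the 2 sets did not overlap. The same was true of 3 of the 9 tested genes (Irs1 and Irs2 lower, Foxo3 higher), against 10.2% of all genes lower and 9.81% higher. The averaged TNF-α value was -1.21 ± 0.38 on the log2 scale (95% interval -2.11 to -0.31) and did not pass (adjusted p = 0.115 by edgeR). For TNF-α against control it was -1.41 ± 0.54 (adjusted p = 0.277). DESeq2 called Irs1 at the same fold changes in both, with adjusted p of 0.00456 averaged and 0.0497 against control. Without TNF-α library 16 the averaged value was -0.87 and that for TNF-α against control was -0.74, in the fit where the TNF-α group has 1 library. Without library 14 of that group, which again leaves 1 library, the averaged value was -1.86. With a correction for exon length, an offset added after the length trend had been seen, it was -1.18 (adjusted p = 0.0391).

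The Irs1 counts of the TNF-α group also differed from the TPM of the same libraries. TNF-α library 16 had 18.9 CPM and 10.8 TPM, library 14 had 75.3 CPM and 27.5 TPM, and the TPM for each CPM in library 16 was 1.57 times the median of the 8 libraries. For the other 8 tested genes that ratio in library 16 was 0.618 to 0.82 times their medians. Of the Irs1 exons, 30.9% overlap Gm9747 on the opposite strand in the annotation. That gene had 0 counts in every library, and whether the counting used strand is not stated.

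The kinases Akt1 and Akt2 are the main effectors of phosphoinositide 3-kinase, with Akt2 known as the form most tied to insulin action on glucose. Akt1 had 269 and 272 CPM with TMAO, 250 and 291 CPM with TNF-α, 257 and 249 CPM with both, and 274 and 262 CPM in control. Akt2 had 144 and 140 CPM with TMAO, 137 and 156 CPM with TNF-α, 132 and 133 CPM with both, and 149 and 143 CPM in control. All libraries of Akt1 lay within 249 to 291 CPM and those of Akt2 within 132 to 156 CPM, and in both genes the libraries with TNF-α overlapped those without. The averaged TNF-α values were -0.04 ± 0.08 for Akt1 (95% interval -0.23 to 0.15, adjusted p = 0.856) and -0.05 ± 0.07 for Akt2 (-0.22 to 0.13, adjusted p = 0.814). These 2 genes had the smallest standard errors of the 9.

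Foxo1, the FoxO protein most tied to hepatic glucose production, had 17.8 and 18.1 CPM with TMAO, 20.3 and 14.3 CPM with TNF-α, 19.4 and 19.8 CPM with both, and 17.4 and 18.4 CPM in control. The TMAO libraries lay within the range of the control libraries. TMAO against control gave a log2 fold change of 0.0046 ± 0.17, with a 95% interval of -0.39 to 0.40, that is a fold of 0.762 to 1.32 (adjusted p = 1 by edgeR). TMAO averaged over TNF-α gave 0.09 ± 0.12 (95% interval -0.19 to 0.37, adjusted p = 0.73), and TNF-α averaged over TMAO gave 0.04 ± 0.12 (-0.24 to 0.32, adjusted p = 0.903). Eif2ak3, which encodes the kinase PERK of the proposed TMAO axis and is named here outside the rule for pathway genes, was at -0.10 ± 0.12 for TMAO against control (adjusted p = 1).

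Foxo3 encodes a second FoxO protein, known for targets in autophagy, cell cycle arrest and oxidative defence. It had 67.7 and 65.8 CPM with TMAO, 111 and 82.3 CPM with TNF-α, 105 and 109 CPM with both, and 68.5 and 71.0 CPM in control. Every library with TNF-α was higher than every library without, and TNF-α 16 was the lowest of the 4 with it. The averaged value was 0.58 ± 0.10 on the log2 scale (95% interval 0.33 to 0.82, adjusted p = 0.0161 by edgeR). The single contrasts did not pass by edgeR, at 0.47 ± 0.15 for TNF-α against control (adjusted p = 0.173), 0.61 ± 0.15 for both against control (adjusted p = 0.0856) and 0.68 ± 0.15 for both against TMAO (adjusted p = 0.0613). DESeq2 called Foxo3 in the second of these at 0.62 (adjusted p = 0.0182) and in the last at 0.68 (adjusted p = 0.00559), but not for TNF-α against control (adjusted p = 0.138), and each of the 2 contrasts with both agents passed in 7 of 22 alternative fits. Without TNF-α library 16 the averaged value was 0.67 and without library 14 of that group it was 0.46, each with 1 library left in the group. Without any 1 of the other 6 libraries the call ended, at values of 0.57 to 0.60 and adjusted p of 0.0801 to 0.0987, and on TPM values it was 0.40 and did not pass (adjusted p = 0.30).

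**Figure D3:**
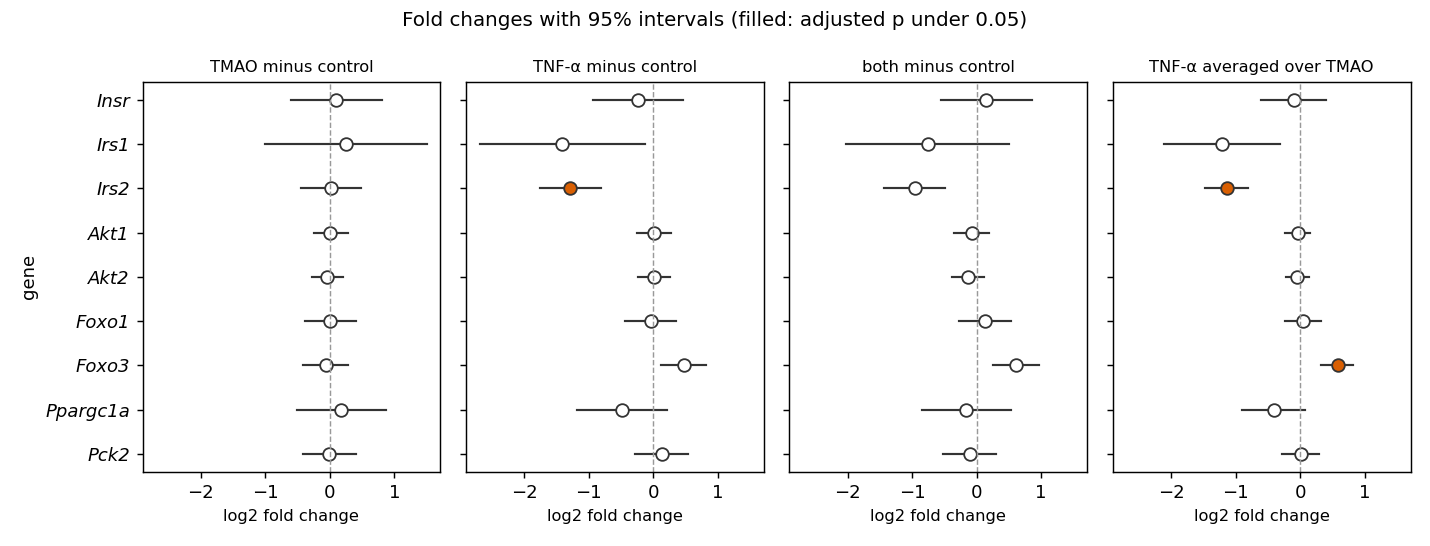
Log2 fold changes of the 9 tested genes with 95% intervals (lines) for TMAO, TNF-α and both against control and for TNF-α averaged over TMAO; filled points had an adjusted p under 0.05. Only Irs2 is filled for TNF-α minus control, Irs2 and Foxo3 are filled for the averaged contrast, and Irs1 has the widest intervals.

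Ppargc1a had 12.3 and 12.6 CPM with TMAO, 10.6 and 5.13 CPM with TNF-α, 10.1 and 9.61 CPM with both, and 10.4 and 11.6 CPM in control. The 4 libraries with TNF-α spanned 5.13 to 10.6 CPM and those without spanned 10.4 to 12.6 CPM, which overlapped. The averaged TNF-α value was -0.41 ± 0.21 (adjusted p = 0.354). Pck2, the mitochondrial carboxykinase and a target of the amino acid response in other cells, had 55.0 and 53.9 CPM with TMAO, 48.7 and 71.1 CPM with TNF-α, 48.8 and 52.3 CPM with both, and 56.0 and 53.4 CPM in control. The TNF-α library 16 was the highest and the other 7 lay between 48.7 and 56.0 CPM. Its averaged TNF-α value was 0.01 ± 0.12 (adjusted p = 0.977). Without TNF-α library 14, leaving library 16 alone in its group, 3 genes that otherwise missed the threshold passed in the averaged contrast beside Irs1, namely Insr at -0.40 (adjusted p = 5.39e-05), Ppargc1a at -0.72 (adjusted p = 2.42e-05) and Pck2 at 0.14 (adjusted p = 0.0378). That fit called 7444 of 16317 genes, against 1437 with all libraries, so passing in it sets none of these genes apart.

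Pck1, the cytosolic carboxykinase and the classical rate-controlling step of gluconeogenesis in liver, had 3 counts in all. They were 1 count in TMAO library 16 and 2 counts in control library 14, and the other 6 libraries had 0, which at 3 counts allows up to 0.0993 to 0.124 CPM. Other liver enzymes of the pathway were also near 0. G6pc, the glucose-6-phosphatase subunit of liver, and Fbp1, the liver fructose bisphosphatase, each had 1 count in control library 16 and 0 elsewhere, and Fbp2 had 0 counts in every library. A change in these transcripts was thus not detectable at this depth, and Pck1 and G6pc gave no readout of FoxO1 in these libraries. Expressed members of the pathway included Pcx, pyruvate carboxylase, at 22.8 to 27.2 CPM, and G6pc3, the widely expressed phosphatase subunit, at 34.5 to 52.4 CPM over the 8 libraries.

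For TMAO against control, 0 of the 9 tested genes passed, none had an unadjusted p under 0.05, and their median log2 fold change was 0.01, against 0.0016 over all genes. Over all genes 0.00% were called and 184 of 15613 (1.18%) had an unadjusted p under 0.05 by edgeR, and DESeq2 called 0 of the 9 genes and 4 of all genes. The values of the 9 genes ran from -0.06 for Foxo3 to 0.25 ± 0.53 for Irs1. For TMAO added to TNF-α, their values ran from -0.24 for Pck2 to 0.65 ± 0.53 for Irs1, with 0 of 9 called by edgeR or DESeq2, 0 with an unadjusted p under 0.05, and 0.00% of all genes called by edgeR, with 549 at an unadjusted p under 0.05.

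The interaction, the difference between the TMAO effect with TNF-α and without it, was called for 0 of the 9 genes and 0.00% of all genes by edgeR, with 0 of the 9 genes and 184 of all genes at an unadjusted p under 0.05, and DESeq2 called 0 of each. Its values were 0.31 ± 0.28 for Irs2, 0.40 ± 0.75 for Irs1, 0.21 ± 0.21 for Foxo3 and 0.17 ± 0.24 for Foxo1. The 95% interval for Irs1 was -1.37 to 2.18 on the log2 scale. TMAO averaged over TNF-α likewise called 0 of the 9 genes and 0.00% of all genes by edgeR, with 0 of the 9 and 453 of all genes at an unadjusted p under 0.05, and DESeq2 called 0 of the 9 and 4 of all genes. Without TNF-α library 14, which leaves library 16 alone in that group, all 9 genes passed for TMAO added to TNF-α, 7 for the interaction and 8 for the averaged TMAO contrast, but so did 8068, 5788 and 7308 of the 16317 genes tested in that fit. Without library 16, 0 of the 9 passed in any of these 3, nor did more than 9 of all genes.

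The wider pathway was read through 6 lists of 16 to 24 genes in the averaged TNF-α contrast. Over all genes, 9.20% were called there, 20.4% had an unadjusted p under 0.05 by edgeR, and the median was 0.0032. Among components of the insulin, phosphoinositide 3-kinase and AKT route, 0 of 19 tested genes passed by edgeR or DESeq2, 3 had an unadjusted p under 0.05, and the median log2 fold change was -0.07. The 2 with the smallest p were Shc1, an adaptor of the receptor, at -0.24 ± 0.07 (adjusted p = 0.0959), and Tbc1d4, an AKT substrate in glucose transport, at 0.40 ± 0.16 (adjusted p = 0.215). Among regulators of FoxO and its family, 0 of 15 passed by edgeR and 1 by DESeq2, 2 had an unadjusted p under 0.05, the median was -0.04, and the smallest p belonged to Ywhaz, a 14-3-3 protein that binds phosphorylated FoxO, at -0.22 ± 0.08 (adjusted p = 0.156), and to Sgk1, an AKT-related kinase, at -0.17 ± 0.07 (adjusted p = 0.245). Without TNF-α library 16 the counts were 5 of the first list (3 higher) and 3 of the second (all lower), against 4102 of all genes called in that fit, and without library 14 they were 9 (1 higher) and 11 (2 higher), against 7444 of all genes.

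Among inhibitors of insulin signalling, 4 of 20 tested genes passed, 2 higher and 2 lower, against 9.20% of all genes, with a median of -0.03. Grb14, an adaptor that blocks the kinase of the insulin receptor and is known from liver, had 29.6 and 27.2 CPM with TMAO, 16.4 and 19.4 CPM with TNF-α, 14.7 and 14.2 CPM with both, and 31.4 and 30.3 CPM in control. Its 4 libraries with TNF-α lay below the 4 without, and it fell by 0.88 ± 0.09 on the log2 scale (adjusted p = 0.00116). The related adaptor Grb10 was low throughout, at 0.372 to 2.86 CPM, and fell by 1.96 ± 0.31 (adjusted p = 0.0093). Ikbkb, the IκB kinase β that also phosphorylates docking proteins on serine, rose by 0.47 ± 0.08 (adjusted p = 0.00998), and Prkcd, protein kinase C δ, rose by 0.33 ± 0.07 (adjusted p = 0.0244). Socs3, a cytokine-induced inhibitor of docking proteins in liver named here outside the rule, was at -0.27 and did not pass (adjusted p = 0.217). Grb14 passed without each of the 8 libraries in turn, Grb10 without 6 of them, and Ikbkb and Prkcd without 2 of them. Without TNF-α library 16 or 14, in fits leaving 1 library in that group, more of the list passed, as did more of all genes.

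Among reported FoxO targets, 8 of 20 tested genes passed, 5 higher and 3 lower, against 9.20% of all genes, with a median of 0.10. Igfbp1, a secreted binder of insulin-like growth factors, had 145 CPM in both TMAO libraries, 56.5 and 80.6 CPM with TNF-α, 53.5 and 53.9 CPM with both, and 195 and 180 CPM in control. The 4 libraries with TNF-α were the lowest and the 2 TMAO libraries lay between them and control. Igfbp1 fell by 1.44 ± 0.12 on the log2 scale with TNF-α (adjusted p = 0.000642), and TMAO against control gave -0.37 ± 0.16, which did not pass (adjusted p = 1). Trib1, a pseudokinase of hepatic lipid metabolism, fell by 0.66 ± 0.07 (adjusted p = 0.00168), and Mttp, the microsomal triglyceride transfer protein, fell by 0.37 (adjusted p = 0.0416).

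The 5 higher FoxO targets were Bcl6, a transcriptional repressor, at 0.90 ± 0.08 (adjusted p = 0.000952), Fbxo32, a ubiquitin ligase of muscle atrophy, at 1.2 ± 0.18 (adjusted p = 0.00758), Bnip3, a mitophagy receptor, at 0.84 ± 0.08 (adjusted p = 0.00131), Ccng2, an inhibitor of the cell cycle, at 0.54 (adjusted p = 0.00859), and Bcl2l11, which promotes apoptosis, at 0.51 (adjusted p = 0.0132). Ccng2, Bcl2l11 and Mttp were named after their values had been seen. Bnip3 had 6.59 and 6.76 CPM with TMAO, 21.3 and 24.9 CPM with TNF-α, 15.8 and 15.9 CPM with both, and 16.9 and 17.5 CPM in control. Its 2 TMAO libraries were the lowest and its 2 TNF-α libraries the highest. The 2 libraries with both agents lay below the 2 of control, so the averaged TNF-α value draws on the low TMAO level. DESeq2 called Bnip3 for both agents against TMAO, but not for TNF-α or both agents against control. For TMAO against control Bnip3 was at -1.37 ± 0.12 and did not pass by edgeR (unadjusted p = 9.33e-06, adjusted p = 0.146), whereas DESeq2 called it at the same fold change (adjusted p = 1.2e-10). Igfbp1, Trib1 and Bnip3 passed for averaged TNF-α in all 21 alternative fits, Bcl6 in 20 of them and Fbxo32 in 17. Ccng2, Bcl2l11 and Mttp were not followed singly in these fits. With 1 library left out, as few as 5 genes of the list passed. More of the list passed without TNF-α library 16 or 14, as did more of all genes, in fits that leave 1 library in that group.

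**Figure D4:**
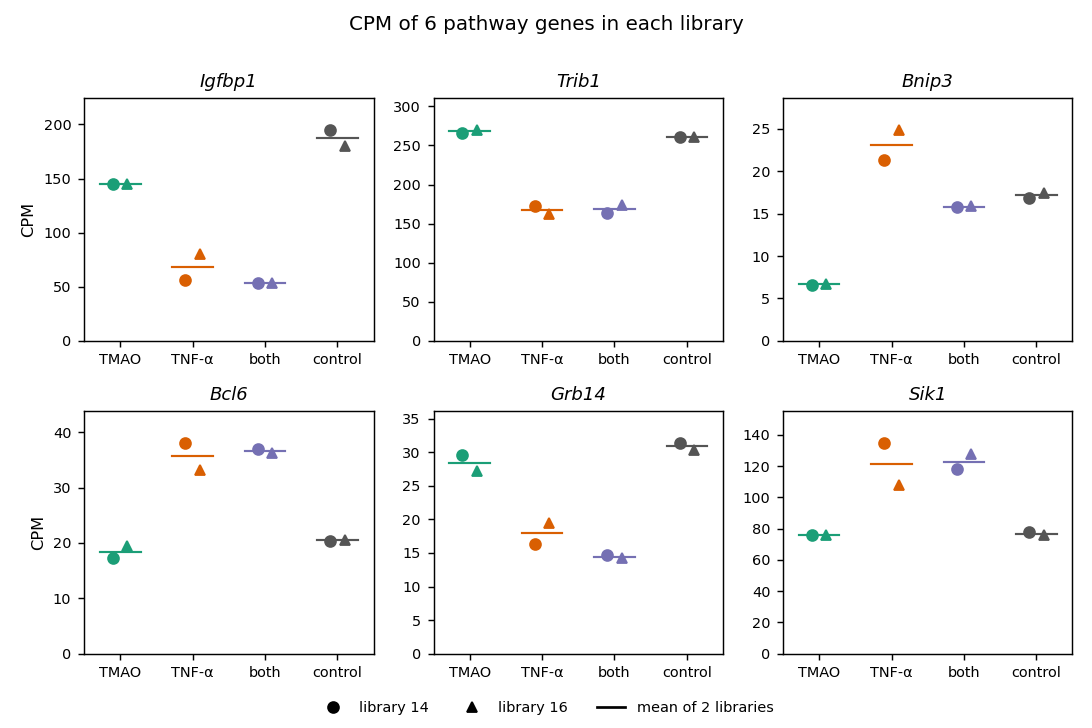
CPM of 6 pathway genes in each library (circles, library 14; triangles, library 16; bars, mean of the 2 libraries), by group: the FoxO targets Igfbp1, Trib1, Bnip3 and Bcl6, the inhibitor Grb14 and the kinase Sik1. Igfbp1, Trib1 and Grb14 are lower and Bcl6 and Sik1 higher in the 4 libraries with TNF-α than in the 4 without, whereas for Bnip3 the 2 TMAO libraries, at 6.59 and 6.76 CPM, are the lowest.

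Among gluconeogenesis enzymes and carriers, 1 of 15 tested genes passed, against 9.20% of all genes, and the median was 0.03. The called gene was Slc25a12, the mitochondrial aspartate and glutamate carrier, which fell by 0.39 ± 0.08 (adjusted p = 0.0249). Among regulators of gluconeogenesis, 4 of 22 passed, 1 higher and 3 lower, against the same 9.20% of all genes, with a median of -0.01. Sik1, a kinase that restrains the CREB coactivators, had 76.1 and 75.8 CPM with TMAO, 135 and 108 CPM with TNF-α, 118 and 128 CPM with both, and 77.9 and 75.9 CPM in control, and it rose by 0.68 ± 0.09 (adjusted p = 0.00492). Hnf4a, which encodes the nuclear receptor needed for Pck1 and G6pc expression in liver, fell by 0.65 ± 0.09 (adjusted p = 0.00639), Foxa2 by 0.50 ± 0.10 (adjusted p = 0.0265) and Onecut1 by 1.14 ± 0.25 (adjusted p = 0.0357). Sik1 passed without each of the 8 libraries in turn, Hnf4a without 5 of them, and Foxa2, Onecut1 and Slc25a12 without 2 of them. Without TNF-α library 16 or 14 more of both lists passed, but those fits leave 1 library in that group and called more of all genes. In the TMAO against control contrast 0 genes of the 6 lists passed by edgeR, against 0.00% of all genes. DESeq2 called 1 of them, Bnip3, with its count over all genes given above. An unadjusted p under 0.05 by edgeR was found for 2 of 20 tested FoxO targets and 0 genes of the other lists. Over all genes that share was 1.18%.

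**Figure D5:**
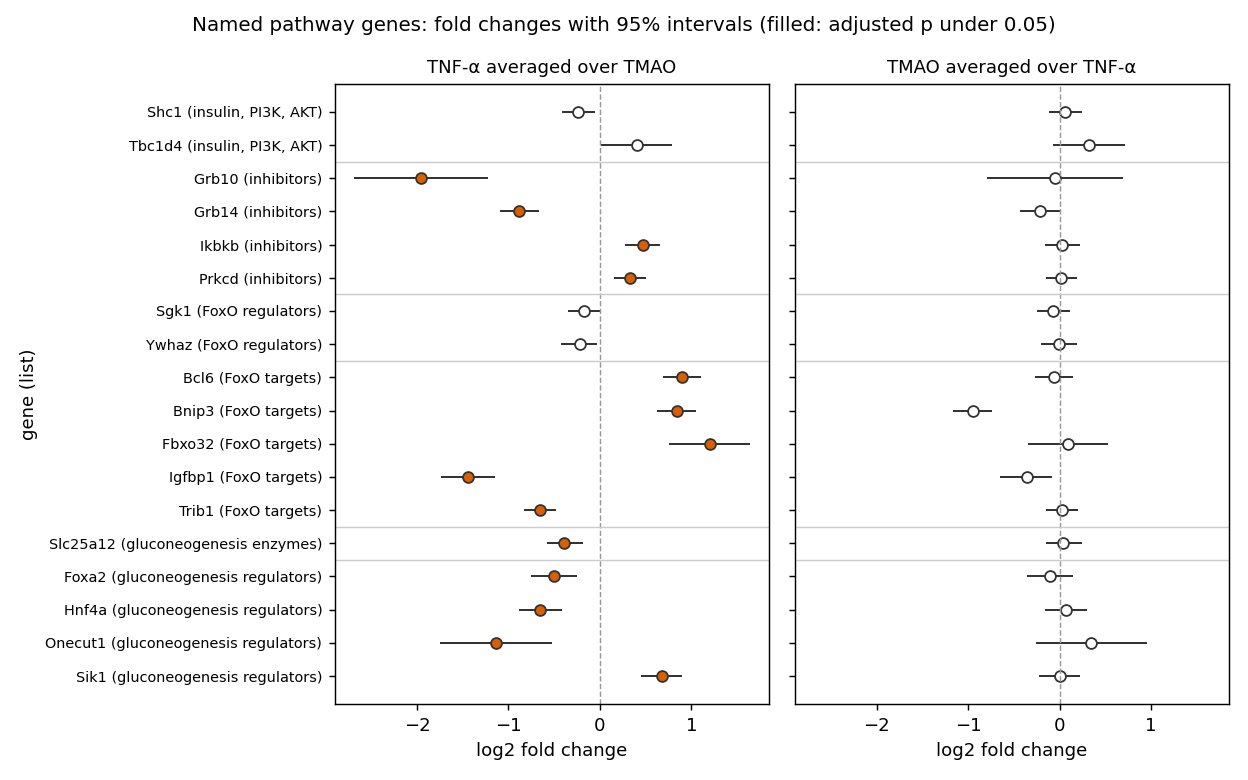
Log2 fold changes with 95% intervals (lines) of the pathway genes named by the stated rule, grouped by list, for TNF-α averaged over TMAO and for TMAO averaged over TNF-α; filled points had an adjusted p under 0.05. With TNF-α 14 of the 18 genes are filled, from Grb10 at -1.96 to Fbxo32 at 1.2. That count follows largely from the rule, which took genes that had passed the test in a comparison. Over all genes 9.20% were called there. With TMAO none is filled by edgeR, Bnip3 having the lowest value at -0.95.

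Hepatocyte markers moved with TNF-α in the same libraries as Irs2, Igfbp1 and Grb14. The summed level of the 10 hepatocyte markers was mostly Alb and Afp. It was 1410 to 1530 CPM in the 4 libraries with TNF-α and 3120 to 3350 CPM in the 4 without. Of the 7 tested, 4 were called lower (Alb, Afp, Hnf4a and Foxa2), against 3.86% of all genes. Hnf4a and Foxa2 are also in the list of regulators. The part of this marker fall in the Irs2 result was not tested. Of the 8 macrophage markers, 2 or 3 were at 0 in each library, with a sum of 27.3 to 40 CPM with TNF-α and 30.2 to 35.1 CPM without. Marco had 0 counts in every library. Of the 3 tested, 1 was called lower, against 3.86% of all genes, namely Csf1r, which fell by 1.08 (adjusted p = 0.00118). The other 2, Cd68 and Cd14, had positive values of at most 0.33 and were not called. Endothelial markers summed to 0.811 to 1.67 CPM over all libraries. Those of stellate cells summed to 1280 to 1460 CPM with TNF-α and 1650 to 1810 CPM without, nearly all of it Dcn. Those of muscle and fat summed to 1.1 to 2.73 CPM with TNF-α and 0.762 to 0.98 CPM without, most of it Slc2a4, the insulin-responsive glucose transporter of those tissues, which rose by 1.1 at levels of 0.597 to 2.69 CPM (adjusted p = 0.0414), while Myod1 and Myh4 had 0 counts in every library.

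The genes whose profile over the 8 libraries was nearest to that of Irs2 were Lgr5, Sorbs2 and Ppl, at root mean square distances of 0.06, 0.07 and 0.08 on the log2 scale, among 8753 genes with at least 10 CPM on average. Lgr5 had 117 and 121 CPM with TMAO, 61.1 and 35.6 CPM with TNF-α, 61.0 and 60.7 CPM with both, and 115 and 127 CPM in control. Nearest to Foxo3 were Stc1, Vwa5a and Sestd1, at 0.04, 0.04 and 0.05. Nearest to Foxo1 were Ptpn12, Hk2 and Setdb1, at 0.02, 0.03 and 0.03, and there TNF-α library 16 was the lowest of the 8 for each of these genes. These distances are a description without a test, and the 8 points share that library.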

How the data were processed

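Polyadenylated RNA of Hepa1-6 cells was sequenced as paired reads, per the labels' protocols, in 8 libraries of 4 groups. The deposited count table holds whole-number read counts per Ensembl gene, and the genome build is mm9 per the submitters' processing notes. Aligner, annotation, strand setting and the program behind the authors' TPM values: not given in the sources used here.

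Groups came from the sample labels. The counts were tested in R 4.3.3 with edgeR 4.0.16 (filterByExpr, TMM scaling, robust quasi-likelihood fit of 4 group means, 4 residual degrees of freedom, Benjamini-Hochberg adjustment over 15613 genes at 0.05). A total of 8 contrasts was taken. CPM are counts for each 1000000 counts of the TMM-scaled library size, and fold changes are on the log2 scale. Libraries held 24736746 to 30488605 counts. TPM values, which the authors deposited per gene symbol, served for levels between genes and, as log2(TPM + 1) or log2(TPM + 0.1) in limma 3.58.1, as an alternative. Other alternatives were DESeq2 1.42.0, limma-voom, other scalings and filters, a replicate block, only the compared groups, each library left out in turn, and, added after seeing the data, a block with control numbers crossed, an offset for exon length (lowess span 0.3) and the pathway lists under each setting. The scripts were tested on simulated data.

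The 10 genes and the lists were chosen with earlier results of these data known. Of each pathway list, genes past the test in any comparison were named (the 4 with the smallest p where more passed in 1 comparison), or the 2 with the smallest p for averaged TNF-α where none did. Whether the library numbers pair the groups is not given in the labels. The correlations of the differences between libraries 16 and 14 over genes were -0.64 for TNF-α and control. For the other pairs of groups they were -0.08 to 0.0049. TNF-α and control also had opposite length trends between libraries 16 and 14. No shift in the same direction was common to the groups, which cannot tell whether the libraries were paired. Exon lengths and overlaps were read from GENCODE M21 and promoter windows from RefSeq (GRCm38.p6), neither of the files' build, so no position of the count data was used.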

Additional observations from a re-analysis of the deposited data

How the results depend on the processing

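Of 1557 values of the 9 tested genes under alternatives, 1438 stayed on their side of the threshold (139 of them changed sign without passing in either fit). A further 84 kept their sign and passed only under the alternative, and 34 no longer passed. The last 1 was not called with all libraries, and changed sign and passed under an alternative. It was Pck2 for averaged TNF-α, at 0.01 with all libraries and -0.11 without TNF-α 16 and control 14. That fit leaves 1 library in each of these 2 groups. Of 378 values of the named pathway genes, 298 were unchanged in call, 65 no longer passed and 15 newly passed. Of these values, 0 changed sign with a call in either fit.

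Averaged TNF-α called 2 of the 9 genes, against 7 without TNF-α 16 and control 14, 1 on either TPM scale and 0 on unfiltered TPM, where Irs2 was at -1.15 (adjusted p = 0.0775). TNF-α against control called 1, against 2 with DESeq2 or the length offset, 3 without TNF-α 16 and control 14, and 0 with only the compared groups or on TPM. Both agents against control called 0, against 1 with limma-voom, 2 with DESeq2, no filter or the length offset, and 3 with only the compared groups or without TNF-α 16 and control 14. Both agents against TMAO called 1, against 2 with DESeq2, no filter or the length offset, 6 with only the compared groups or without TNF-α 16 and control 14, and 0 with RLE or total count scaling, the 1 CPM filter or TPM. The cause was not tested. With the replicate block, both agents against TMAO called 0, as with control numbers crossed, and whether the numbers pair the libraries is not known. Over all genes the block called 1011 for averaged TNF-α, against 1437 without it.

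Leaving out 1 library gave 1 to 6 genes for averaged TNF-α, 0 to 7 for TNF-α against control, 0 to 3 for both against control, 0 to 4 for both against TMAO, 0 to 9 for both against TNF-α, 0 to 8 for averaged TMAO, 0 to 7 for the interaction and 0 to 0 for TMAO against control. The values above 4 came from leaving out TNF-α 14. The same fits called 92 to 7971 of all genes for TNF-α against control, 90 to 3013 for both against control, 71 to 2628 for both against TMAO, 0 to 8068 for both against TNF-α, 0 to 7308 for averaged TMAO, 0 to 5788 for the interaction and 0 to 9 for TMAO against control. Over all genes, averaged TNF-α called 1437, against 2109 with the length offset, 5526 without TNF-α 16 and control 14, 820, 777 and 732 on the TPM scales, 4102 without TNF-α 16, 7444 without TNF-α 14 and 647 to 716 without any other library. With 2 libraries a group and TNF-α 16 apart from its partner, differences within the intervals given could be missed in genes that did not pass.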
